A study of Mus musculus with 12 samples.

Results

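The matrix metalloproteinase (MMP) and tissue inhibitor of metalloproteinase (TIMP) genes described here are Mmp2, Mmp3, Mmp9, Mmp10, Mmp11, Mmp13, Mmp14, Timp1, Timp2 and Timp3. These 10 genes were taken by symbol from the 25203 genes of the deposited table, and all 10 were among the 12641 genes tested, those that reached 1 FPKM in 3 or more libraries. FPKM scales the fragments of a gene by its length and by the library's total, so levels can be set side by side between genes. RNA-seq was done on primary cultures of mouse intestinal stromal cells that carry a nuclear green fluorescent reporter of Pdgfra at low level (Pdgfra-lo-H2B-GFP). There were 4 groups of 3 libraries: cultures labelled Tgfbr2KO that received TGFB1 (Tgfbr2KO_TGFB1) or vehicle (Tgfbr2KO_Vehicle), and cultures not labelled knockout that received TGFB1 (TGFB1) or vehicle (Vehicle). TGFB1 is a ligand of the TGF-beta receptors, Tgfbr2 encodes the type 2 receptor, and the design used the knockout cultures to look for responses outside the canonical receptor. The labels give neither the dose and duration of TGFB1, nor how Tgfbr2 was deleted or in which part of the gene, nor the age, sex or strain of the mice. Nor do they state whether replicates came from separate animals or cultures, so p-values measure the spread between these libraries.

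MMPs are zinc endopeptidases that cleave collagens, elastin, fibronectin and other matrix proteins, and most are secreted as inactive precursors whose propeptide must be removed. TIMPs bind the active site and block it, and Timp2 also takes part with membrane-bound Mmp14 in the activation of the Mmp2 precursor. In the gut wall, stromal cells are a main source of stromelysins, gelatinases and TIMPs during repair, inflammation and tumour growth. TGF-beta is known in cultured fibroblasts for raising Timp1 and lowering stromelysin transcription.

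Mmp3, Mmp10 and Mmp13 lie in 1 run of 10 neighbouring metalloproteinase genes on chromosome 9, and their promoters are shown because these genes had the 3 largest differences of the 10 between the genotypes with vehicle. RefSeq promoter windows of 300 bases (250 before and 50 after the annotated start; GRCm38.p6, whereas the authors' files were made on mm9) were at hand for 8 of the 10 genes, all but Mmp2 and Mmp9. The windows lie at chr9:7445572-7445871 (Mmp3), chr9:7502092-7502391 (Mmp10) and chr9:7272264-7272563 (Mmp13), all on the + strand. Capitals mark matches to the AP-1 motif TGANTCA, the site of dimers of Fos and Jun proteins.
Mmp3: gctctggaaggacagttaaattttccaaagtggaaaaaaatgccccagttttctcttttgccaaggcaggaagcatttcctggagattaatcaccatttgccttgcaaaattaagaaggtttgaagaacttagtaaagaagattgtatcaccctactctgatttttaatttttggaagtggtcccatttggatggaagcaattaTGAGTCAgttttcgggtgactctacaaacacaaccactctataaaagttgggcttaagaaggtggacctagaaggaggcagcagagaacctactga
Mmp10: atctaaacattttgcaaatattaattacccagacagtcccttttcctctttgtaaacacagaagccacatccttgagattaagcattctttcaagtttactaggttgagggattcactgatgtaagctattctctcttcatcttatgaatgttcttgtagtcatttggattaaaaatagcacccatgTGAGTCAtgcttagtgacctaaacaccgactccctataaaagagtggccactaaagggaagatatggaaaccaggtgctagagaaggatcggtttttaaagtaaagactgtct
Mmp13: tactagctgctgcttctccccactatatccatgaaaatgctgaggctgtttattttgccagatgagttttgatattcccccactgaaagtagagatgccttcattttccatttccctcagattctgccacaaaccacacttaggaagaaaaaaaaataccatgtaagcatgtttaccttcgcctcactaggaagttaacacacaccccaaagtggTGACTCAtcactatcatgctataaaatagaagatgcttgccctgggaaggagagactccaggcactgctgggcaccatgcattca
The match begins at base -46 in Mmp3, -63 in Mmp10 and -35 in Mmp13, counted back from the annotated start, and reads TGAGTCA in Mmp3 and Mmp10 and TGACTCA in Mmp13. With both strands searched, the motif was in the windows of these 3 genes, in none of the other 5 member windows (Mmp11, Mmp14, Timp1, Timp2 and Timp3), and in 7.79% of all 32544 promoter windows. The same 3 windows, and none of the other 5, held a TATAAA, which 13.6% of all windows held. The TGF-beta inhibitory element was described in the rat stromelysin promoter as a site where TGF-beta lowers transcription. A match to it was found in 0 of the 8 windows and in 0.977% of all. The windows reach only 250 bases before the annotated start, so sites further upstream were not searched. Only exact matches were counted, and the Timp1 window holds a TGAGTAA, which is 1 base off the AP-1 motif. In the chromosome 9 run, windows of Mmp1a, Mmp1b and Mmp20 also held the AP-1 motif, as did 1 of 2 windows each for Mmp12 and Mmp7, while those of Mmp8 and Mmp27 held none. A match in a window is a description of its letters and does not show binding.

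The library FPKM sums lay between 498669 and 569510, and read numbers are not given in the sources used here. Low values placed the TGFB1 libraries at 0.745 to 0.799 of the depth of Vehicle replicate 1 and the other libraries at 0.803 to 1.24. Tgfbr2 had 31.6, 38.0 and 62.4 FPKM in Tgfbr2KO_TGFB1, 27.0, 35.2 and 41.9 in Tgfbr2KO_Vehicle, 56.5, 70.6 and 74.6 in TGFB1 and 48.0, 38.2 and 78.8 in Vehicle libraries (Tgfbr2KO_Vehicle minus Vehicle log2 -0.61, limma adjusted p = 0.260). Since FPKM cover the whole gene, they do not test the deletion of an exon. Of 8 fibroblast markers, all reached 1 FPKM in every library except Lum, whose lowest value among the TGFB1 libraries was 0.855, and their summed FPKM was 3629 to 6633 in Tgfbr2KO_TGFB1, 2882 to 4022 in Tgfbr2KO_Vehicle, 8104 to 8873 in TGFB1 and 5154 to 8526 in Vehicle libraries. The sums of Tgfbr2KO_Vehicle thus lay below those of Vehicle with no overlap. Col1a1 (845 to 1395 FPKM in Tgfbr2KO_Vehicle, 2165 to 3881 in Vehicle) and Col1a2 (326 to 735, 1076 to 2314) also lay lower. Vim (1203 to 1341, 1088 to 1255) and Thy1 (108 to 174, 106 to 186) overlapped. Between these groups 0 of the 8 markers passed, and 1.24% of all tested genes. The part of these markers in the differences between these groups was not tested. Pdgfra, the gene of the reporter, had 67.3 to 195 FPKM in Tgfbr2KO_TGFB1, 48.3 to 99.8 in Tgfbr2KO_Vehicle, 12.1 to 19.7 in TGFB1 and 125 to 165 in Vehicle libraries. Summed FPKM of 8 macrophage markers was 103 to 259 in Tgfbr2KO_TGFB1, 126 to 345 in Tgfbr2KO_Vehicle, 12.3 to 306 in TGFB1 and 33.7 to 630.0 in Vehicle libraries, with replicate 2 lowest in TGFB1 and in Vehicle. Endothelial markers summed to 0.650 to 17.4 FPKM over the 12 libraries and osteoclast and chondrocyte markers to 32.5 to 52.1. Smooth muscle and pericyte markers summed to 1630.3 to 2518 FPKM in Tgfbr2KO_TGFB1, 1786 to 2154 in Tgfbr2KO_Vehicle, 2979 to 3329 in TGFB1 and 2056 to 2542 in Vehicle libraries. The TGFB1 sums stood above those of the other 9 libraries, as did Mmp9, Mmp14, Timp1 and Timp3. The markers did not move together. Actg2 had 2128 to 2413 FPKM in TGFB1 and 1400 to 1762 in Vehicle libraries, but Notch3 (1.84 to 2.36, 3.40 to 5.18) and Mylk (78.0 to 94.5, 96.4 to 105) were lower with TGFB1. For TGFB1 against Vehicle 3 of the 8 markers rose and 1 fell, against 17.3% and 14.6% of all tested genes. The part of these markers in those results was not tested. Epithelial sums were highest in replicate 1 of the knockout cultures, at 27.3 FPKM in Tgfbr2KO_TGFB1 and 63.8 in Tgfbr2KO_Vehicle, against at most 9.92 in the other 10 libraries. In bulk RNA, fewer cells of a type and less RNA per cell cannot be told apart.

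**Figure D1:**
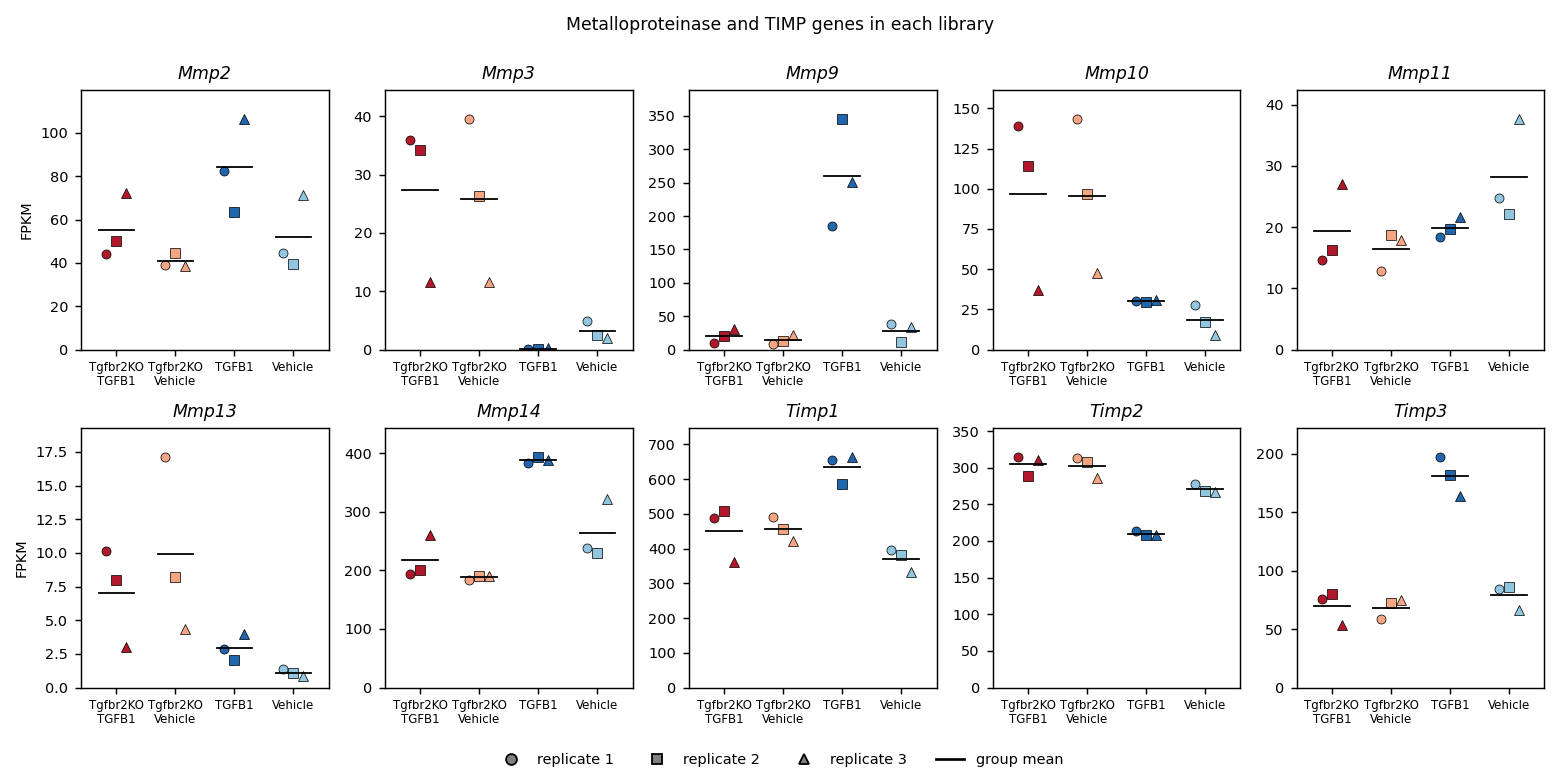
FPKM (linear axis from 0) of the 10 genes in each library, by group; circles, squares and triangles are replicates 1, 2 and 3 and the line is the group mean. The TGFB1 libraries stand above the other 9 for Mmp9, Mmp14, Timp1 and Timp3 and below them for Mmp3 and Timp2, and the Tgfbr2KO libraries stand above the Vehicle libraries for Mmp3, Mmp10 and Mmp13.

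In Vehicle libraries, Timp1, Timp2 and the protease gene Mmp14 were the most abundant of the 10 transcripts. Timp1 averaged 370.1 ± 33.5 FPKM in Vehicle libraries, Timp2 271 ± 5.90 and Timp3 78.9 ± 10.9 (SD, n = 3). Mmp14 averaged 263 ± 50.2 FPKM, and Mmp2 had 51.9 ± 17.0. Mmp11, Mmp9 and Mmp10 averaged 28.2 ± 8.32, 27.7 ± 14.8 and 18.2 ± 9.40 FPKM, and Mmp3 and Mmp13 were the lowest at 3.11 ± 1.54 and 1.10 ± 0.249. The ranges of neighbours in this order overlapped for Timp2 and Mmp14, for Timp3 and Mmp2, and among Mmp11, Mmp9 and Mmp10.

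The first comparison set TGFB1 against Vehicle where the labels name no knockout. Mmp9, Mmp14, Timp1 and Timp3 rose and Mmp3 and Timp2 fell, so 6 of the 10 genes passed the threshold, 4 up and 2 down (limma on log2(FPKM + 1), Benjamini-Hochberg adjusted p under 0.05 over all tested genes). Over all 12641 genes 31.9% passed, 17.3% up and 14.6% down. This fit did not use the replicate numbers. With a block for the number within each genotype, 9 of the 10 genes passed, 7 up and 2 down. Of all tested genes 5102 passed with that block, against 4033 without. The median log2 change of the 10 genes was 0.74, and that of all tested genes 0.02. FPKM ranges of both groups did not overlap for 9 of the 10 genes, and for 47.9% of all tested genes.

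The gelatinases Mmp9 and Mmp2 cleave denatured collagen and type IV collagen. Mmp9 had 185, 345 and 250.4 FPKM in TGFB1 replicates 1, 2 and 3, against 38.8, 11.0 and 33.4 FPKM in Vehicle replicates 1, 2 and 3. Every TGFB1 library was far above every Vehicle library, and the ratio within a replicate number was 4.77, 31.5 and 7.49. The mean was 260.3 ± 80.5 FPKM with TGFB1 and 27.7 ± 14.8 with vehicle (SD, n = 3), which is 9.39-fold higher, or 3.32 on the log2 scale (SE 0.52, limma adjusted p = 0.00103). Mmp9 is also made by macrophages, whose markers summed to 246, 12.3 and 306 FPKM in TGFB1 replicates 1, 2 and 3, against 425, 33.7 and 630.0 FPKM in Vehicle replicates 1, 2 and 3. The part of macrophage RNA in the Mmp9 result was not tested. Mmp2, the gelatinase that fibroblasts make constitutively, had 82.4, 63.5 and 106 FPKM in TGFB1 and 44.7, 39.7 and 71.3 FPKM in Vehicle libraries. It was higher with TGFB1 in all 3 replicate numbers, but the groups overlapped through TGFB1 replicate 2 and Vehicle replicate 3. Its log2 change of 0.70 (SE 0.25) missed the threshold (limma adjusted p = 0.0557) and passed it with the replicate number as a block (adjusted p = 0.0144). It also passed without Vehicle replicate 3 (0.0145), TGFB1 replicate 2 (0.0344) or Tgfbr2KO_TGFB1 replicate 3 (0.0365).

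Mmp14, a membrane-bound collagenase that activates the Mmp2 precursor at the cell surface, had 384, 394 and 388 FPKM in TGFB1 and 239, 230.3 and 321 FPKM in Vehicle libraries. The 3 TGFB1 values lay close together and above all Vehicle values. Its log2 change was 0.58 (SE 0.13, limma adjusted p = 0.00793), or 1.48-fold in the means. Mmp11, a stromelysin that furin activates inside the cell, had 18.4, 19.7 and 21.6 FPKM in TGFB1 and 24.7, 22.2 and 37.7 FPKM in Vehicle libraries. The groups did not overlap, and TGFB1 was lower in each replicate number, but the log2 change of -0.45 (SE 0.24) did not pass (limma adjusted p = 0.194).

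The means of the chromosome 9 neighbours Mmp3, Mmp10 and Mmp13 did not share a direction, and of these 3 genes only Mmp3 passed. Mmp3, or stromelysin 1, cleaves many non-collagen matrix proteins and other MMP precursors. It had 0.0348, 0.112 and 0.315 FPKM in TGFB1 and 4.87, 2.47 and 2.00 FPKM in Vehicle libraries. All TGFB1 values were near 0 and below every Vehicle value, and the number of fragments behind them is not known. The mean was 20.2-fold lower with TGFB1 (42.3-fold without TGFB1 replicate 3), and the log2 change was -1.78 (SE 0.48, limma adjusted p = 0.0181). That call was lost without Vehicle replicate 1 (adjusted p = 0.0664) or TGFB1 replicate 1 (0.0584).

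Mmp10, the stromelysin most like Mmp3, had 30.2, 29.9 and 31.01 FPKM in TGFB1 and 27.9, 17.4 and 9.20 FPKM in Vehicle libraries. Its TGFB1 values hardly varied, the Vehicle values were widely spread, and the groups did not overlap. Mmp13, the main interstitial collagenase of rodents, had 2.86, 2.04 and 4.01 FPKM in TGFB1 and 1.34, 1.10 and 0.845 FPKM in Vehicle libraries, again with no overlap. The log2 changes were 0.83 (SE 0.54, limma adjusted p = 0.273) for Mmp10 and 0.90 (SE 0.45, adjusted p = 0.159) for Mmp13. With a block for the number within each genotype both passed (adjusted p = 0.0439 and 0.0108), but not with 1 block over both genotypes (0.0651 and 0.0878). How reads that match more than 1 of these related genes were assigned is not given in the sources used here.

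The 3 inhibitors split. Timp1, a soluble inhibitor with a wide range of MMP targets, had 654, 586 and 664 FPKM in TGFB1 and 396, 382 and 332 FPKM in Vehicle libraries. Timp3, which binds to the matrix and also inhibits ADAM proteases, had 197, 182 and 164 FPKM in TGFB1 and 84.4, 85.8 and 66.3 FPKM in Vehicle libraries. Both were higher in every TGFB1 library, with log2 changes of 0.78 (SE 0.13, limma adjusted p = 0.00121) and 1.20 (SE 0.16, adjusted p = 0.000418). Timp2 had 213, 208 and 208 FPKM in TGFB1 and 278, 268 and 267 FPKM in Vehicle libraries. It was lower in every TGFB1 library by a small and even step, at -0.37 on the log2 scale (SE 0.05, limma adjusted p = 0.000506).

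**Figure D2:**
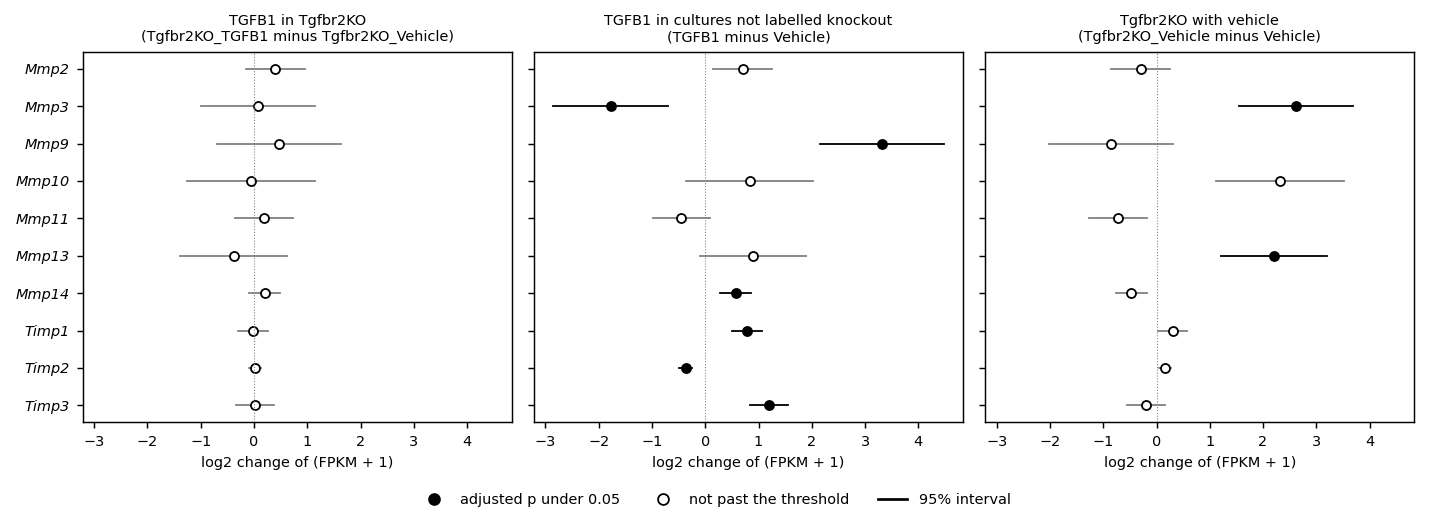
Log2 change of (FPKM + 1) with its 95% interval for each gene in 3 comparisons; filled points passed an adjusted p of 0.05. No gene passed for TGFB1 in Tgfbr2KO cultures, 6 passed for TGFB1 in cultures not labelled knockout, and Mmp3 and Mmp13 passed for Tgfbr2KO with vehicle.

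In Tgfbr2KO cultures, Tgfbr2KO_TGFB1 was compared with Tgfbr2KO_Vehicle, and none of the 10 genes passed. Of all tested genes 0% passed too (limma, 0 of 12641), while an unadjusted p under 0.05 was reached by 0 of the 10 genes and by 748 of all. Mmp9 had 10.3, 19.6 and 30.6 FPKM in Tgfbr2KO_TGFB1 and 8.01, 12.7 and 21.5 FPKM in Tgfbr2KO_Vehicle libraries. It was higher with TGFB1 in each replicate number by 1.29, 1.55 and 1.42 times, but the groups overlapped (log2 change 0.47, 95% interval -0.69 to 1.63, limma adjusted p = 0.783). Mmp14 had 194, 200.1 and 259.8 FPKM in Tgfbr2KO_TGFB1 and 183, 191 and 189.7 FPKM in Tgfbr2KO_Vehicle libraries. It was the only one of the 10 genes with no overlap, which 11.8% of all tested genes had, and the step was narrow (log2 0.20, interval -0.09 to 0.49, adjusted p = 0.738).

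The inhibitors in Tgfbr2KO cultures stood at nearly the same mean with and without TGFB1. Timp1 averaged 452 ± 79.8 FPKM in Tgfbr2KO_TGFB1 and 456 ± 35.0 in Tgfbr2KO_Vehicle libraries, Timp2 305 ± 13.8 and 302 ± 14.5, and Timp3 70.0 ± 14.3 and 68.4 ± 8.55 (SD, n = 3). The 95% intervals of the log2 change were -0.31 to 0.25 for Timp1, -0.10 to 0.13 for Timp2 and -0.34 to 0.38 for Timp3, which leave out the changes seen for all 3 without the knockout. For Mmp3 and Mmp10 the intervals were wide, -0.997 to 1.15 and -1.25 to 1.15, around log2 changes of 0.08 and -0.05. Mmp2, Mmp11 and Mmp13 had log2 changes of 0.40, 0.19 and -0.38 (limma adjusted p from 0.738 to 0.813).

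The interaction term tested whether the TGFB1 change differed between the genotypes. It passed for 4 of the 10 genes, with Timp2 less lowered in Tgfbr2KO cultures and Mmp9, Timp1 and Timp3 less raised, and for 17.6% of all tested genes, 8.38% up and 9.26% down (2230 genes, or 3658 where the replicate number was a block). The difference, Tgfbr2KO change minus the change in cultures not labelled knockout, was -1.18 for Timp3 (SE 0.23, limma adjusted p = 0.00672), 0.38 for Timp2 (SE 0.07, 0.00616), -0.80 for Timp1 (SE 0.18, 0.0124) and -2.85 for Mmp9 (SE 0.74, 0.0253). The Mmp9 call was lost without TGFB1 replicate 2 (adjusted p = 0.0577) or 3 (0.0524), or without Tgfbr2KO_Vehicle replicate 2 (0.0526) or 3 (0.0521). Mmp3 had a difference of 1.85 (SE 0.68) that missed the threshold (limma adjusted p = 0.0895) and passed with the replicate number as a block (0.0267), at a pseudocount of 0.1 (0.0126) and without Tgfbr2KO_TGFB1 replicate 3 (0.0236). For Mmp13 the difference was -1.28 (SE 0.64, adjusted p = 0.193), or 0.0156 with a block within each genotype. With that block 6 of the 10 genes passed, as did 3558 of all tested genes. Mmp14 (-0.38, adjusted p = 0.193) passed only without Vehicle replicate 3 (0.0407), and Mmp2, Mmp10 and Mmp11 did not pass (adjusted p from 0.232 to 0.606).

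Tgfbr2KO_Vehicle was next compared with Vehicle, with no TGFB1 added to either; this comparison shares the Vehicle libraries with the first. Mmp3 and Mmp13 rose and none of the 10 genes fell, while 1.24% of all tested genes passed, 0.522% up and 0.72% down. The 10 genes had a median log2 change of -0.02 and all tested genes -0.0029. Ranges did not overlap for 7 of the 10 genes, and for 30.3% of all tested genes.

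Mmp3 had 39.6, 26.3 and 11.7 FPKM in Tgfbr2KO_Vehicle, against 4.87, 2.47 and 2.00 FPKM in Vehicle libraries. Mmp13 had 17.1, 8.24 and 4.34 FPKM in Tgfbr2KO_Vehicle, against 1.34, 1.10 and 0.845 FPKM in Vehicle libraries. Every knockout library was above every Vehicle library for both genes, and replicate 3 was the lowest of its group for both genes in both genotypes. Mmp3 was 8.31-fold higher in the means (log2 2.62, SE 0.48, limma adjusted p = 0.0404) and Mmp13 9.03-fold (log2 2.21, SE 0.45, adjusted p = 0.0490), or 5.74-fold without Tgfbr2KO_Vehicle replicate 1. Mmp10 had 143, 96.5 and 47.4 FPKM in Tgfbr2KO_Vehicle, against 27.9, 17.4 and 9.20 FPKM in Vehicle libraries. Its ratio within a replicate number was even, at 5.13, 5.54 and 5.15, and the groups were far apart, yet with the wide spread inside each group its log2 change of 2.32 (SE 0.54) did not pass (limma adjusted p = 0.0649).

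Both calls stood near the threshold. Over the 12 fits that each left out 1 library, Mmp3 passed in 2, without Tgfbr2KO_TGFB1 replicate 1 or 3, and Mmp13 in 1, without Tgfbr2KO_TGFB1 replicate 3. The adjusted p ranged from 0.0155 to 0.167 for Mmp3 and from 0.0192 to 0.180 for Mmp13, while the log2 changes stayed at 2.24 to 3.08 and 1.75 to 2.63. Without Tgfbr2KO_TGFB1 replicate 3, Mmp10 (0.0231) and Mmp14 (0.0392) passed as well. Epithelial marker sums also stood higher in the library with the most Mmp3, Mmp10 and Mmp13, Tgfbr2KO_Vehicle replicate 1 (63.8 FPKM, against 5.64 to 8.79 FPKM in Vehicle). Without that library the means were 6.11-fold higher for Mmp3, 3.96-fold for Mmp10 and 5.74-fold for Mmp13. The part of epithelial RNA in these results was not tested.

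The other 7 genes did not pass between Tgfbr2KO_Vehicle and Vehicle. Mmp14 (188 ± 4.45 FPKM in Tgfbr2KO_Vehicle, against 263 ± 50.2 in Vehicle) and Mmp11 (16.5 ± 3.20 and 28.2 ± 8.32) had log2 changes of -0.47 and -0.72 and no overlap (SD, n = 3; limma adjusted p = 0.0990 and 0.142). Timp1 (log2 0.30) and Timp2 (0.15) were higher in each knockout library than in any Vehicle library, with adjusted p of 0.200 and 0.143. Mmp2 (-0.30), Mmp9 (-0.85) and Timp3 (-0.20) overlapped between the groups (adjusted p from 0.353 to 0.503).

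**Figure D3:**
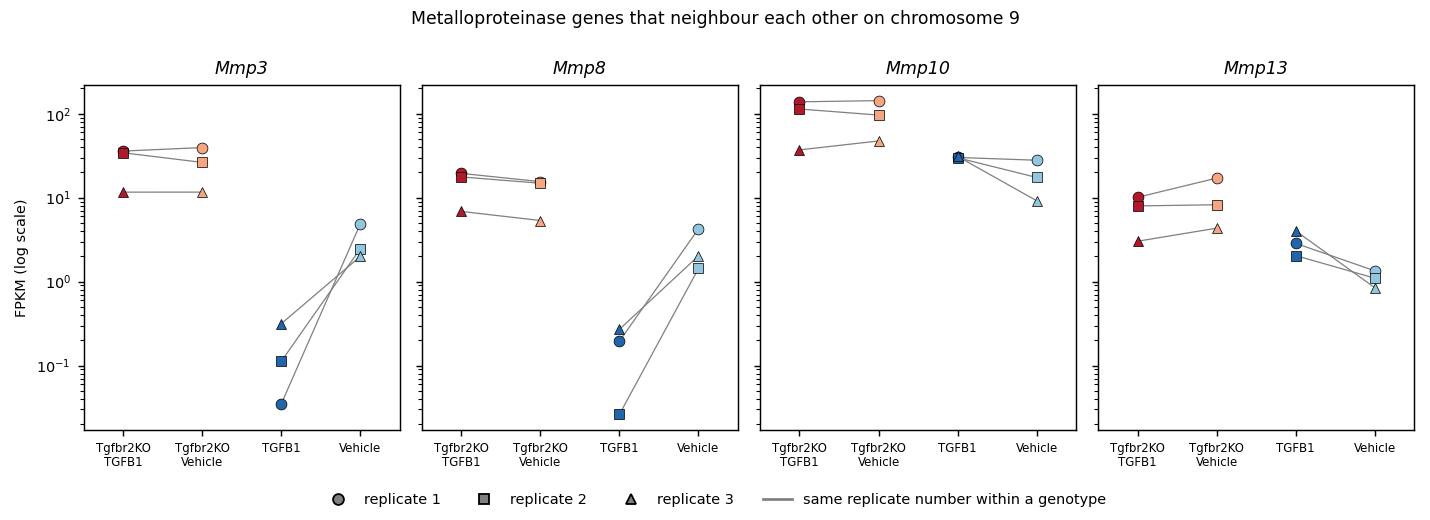
FPKM on a log axis of Mmp3, Mmp8, Mmp10 and Mmp13, neighbours on chromosome 9, with lines joining same-numbered libraries within a genotype. Mmp3 and Mmp8 were near 0 in TGFB1 libraries, at 0.0261 to 0.315 FPKM. Mmp10 and Mmp13 were above Vehicle there but did not pass in the fit without a block. All 4 were higher in Tgfbr2KO_Vehicle than in Vehicle libraries, where only Mmp3 and Mmp13 passed in that fit.

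With TGFB1 in both, Tgfbr2KO_TGFB1 was compared with TGFB1, whose libraries are also those of the first comparison. Mmp3 and Timp2 rose and Mmp9, Mmp14, Timp1 and Timp3 fell, 6 of the 10 genes, while 33.9% of all tested genes passed, 15.6% up and 18.3% down. Ranges did not overlap for 7 of the 10 genes and for 45.4% of all. Mmp3 had 35.9, 34.3 and 11.6 FPKM in Tgfbr2KO_TGFB1, against 0.0348, 0.112 and 0.315 FPKM in TGFB1 libraries. The gap was the widest of the 10 genes, 4.47 on the log2 scale (SE 0.48, limma adjusted p = 7.11e-05). Its 177-fold ratio of means (372-fold without TGFB1 replicate 3) rests on TGFB1 values near 0.

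Mmp9 averaged 20.2 ± 10.2 FPKM in Tgfbr2KO_TGFB1 and 260.3 ± 80.5 in TGFB1 libraries, which is 12.9-fold lower (SD, n = 3; log2 -3.70, SE 0.52, limma adjusted p = 0.000400). Timp3 was 2.59-fold lower (log2 -1.38, SE 0.16, adjusted p = 0.000118), Mmp14 1.78-fold (-0.84, SE 0.13, 0.000758) and Timp1 1.404-fold (-0.50, SE 0.13, 0.0112). Timp2 was 1.45-fold higher in the knockout (log2 0.54, SE 0.05, adjusted p = 3.45e-05). Mmp10 had 139, 114 and 37.1 FPKM in Tgfbr2KO_TGFB1 and 30.2, 29.9 and 31.01 FPKM in TGFB1 libraries, with no overlap but a log2 change of 1.44 (SE 0.54) that did not pass (limma adjusted p = 0.0637). Mmp13 (10.1, 7.98 and 3.03 FPKM in Tgfbr2KO_TGFB1, against 2.86, 2.04 and 4.01) overlapped through replicate 3. Without Tgfbr2KO_TGFB1 replicate 3, Mmp10 (0.00921), Mmp13 (0.0316) and Mmp2 (0.0353) passed too, whereas with it Mmp13 and Mmp2 had adjusted p of 0.142 and 0.0937. Mmp11 showed the least difference (log2 -0.09, adjusted p = 0.821).

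Summed over the genes, the balance of the 2 kinds of transcript can be given as a level, with no test. The 7 MMP genes summed to 444 ± 3.42 FPKM in Tgfbr2KO_TGFB1, 391 ± 56.4 in Tgfbr2KO_Vehicle, 787 ± 76.7 in TGFB1 and 394 ± 76.5 in Vehicle libraries (SD, n = 3). The 3 TIMP genes summed to 827 ± 88.2, 826 ± 41.6, 1026 ± 45.1 and 720.3 ± 48.3 FPKM in the same order of groups. TIMPs therefore made up 65.0 ± 2.43%, 68.0 ± 2.10%, 56.6 ± 3.45% and 64.8 ± 5.76% of the 10-gene sum, with Vehicle replicate 3 (58.3%) inside the TGFB1 range of 53.3% to 60.2%. Within the MMP sum, Mmp14 held 49.1 ± 8.49% in Tgfbr2KO_TGFB1, 48.9 ± 8.06% in Tgfbr2KO_Vehicle, 49.7 ± 4.42% in TGFB1 and 67.1 ± 4.22% in Vehicle libraries. What took the rest differed: Mmp3, Mmp10 and Mmp13 together had 131 ± 70.0 and 132 ± 68.3 FPKM in the knockout groups, against 33.5 ± 1.70 in TGFB1 and 22.4 ± 11.1 in Vehicle, while Mmp9 averaged 20.2 and 14.1 FPKM in the knockout groups, 260.3 in TGFB1 and 27.7 in Vehicle.

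**Figure D4:**
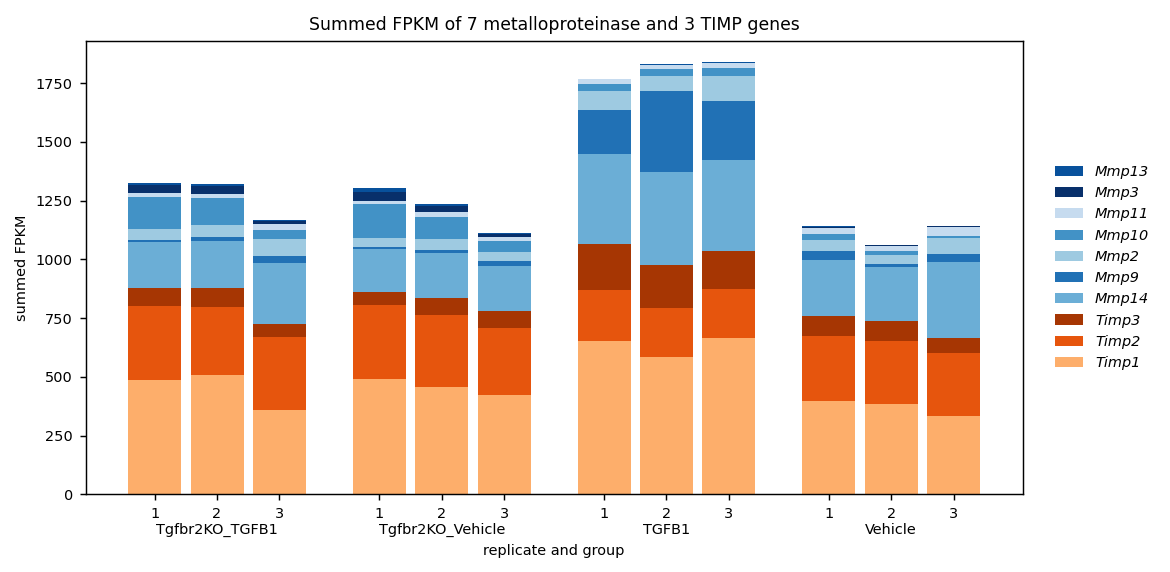
Stacked FPKM of the 10 genes in each library (bars from 0; TIMP genes at the base in orange, MMP genes above in blue). Sums were 1166 to 1327 FPKM in Tgfbr2KO_TGFB1, 1112 to 1305 in Tgfbr2KO_Vehicle, 1768 to 1838 in TGFB1 and 1061 to 1142 in Vehicle libraries.

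Of 17 other genes of the family (16 MMP genes and Timp4), 9 stayed below 1 FPKM in every library, among them Mmp7, which was listed at 0 throughout. The 8 tested were Mmp8, Mmp12, Mmp15, Mmp16, Mmp17, Mmp19, Mmp23 and Mmp28. With TGFB1 in cultures not labelled knockout 4 of them fell and none rose, where 14.6% of all tested genes fell and 17.3% rose. Their median log2 change was -0.34, against 0.02 for all tested genes. Mmp8, a collagenase gene beside Mmp10 on chromosome 9, had 0.195, 0.0261 and 0.270 FPKM in TGFB1 and 4.25, 1.43 and 2.03 FPKM in Vehicle libraries (log2 -1.54, limma adjusted p = 0.0249). Mmp19 (log2 -0.79, 0.0247), Mmp28 (-0.69, 0.00317) and the membrane-bound Mmp16 (-0.57, 0.0335) also fell. In the knockout, none of the 8 passed with TGFB1, where 0 of all 12641 tested genes passed. Mmp8 had a log2 change of 0.28 there, with a 95% interval of -0.72 to 1.28. The interaction passed for Mmp19 and Mmp28 (1.16 and 0.88, limma adjusted p = 0.0351 and 0.0100), and for 17.6% of all tested genes. With the number as a block it also passed for Mmp8 (0.0259) and Mmp16 (0.0144). Of all tested genes 3658 passed with that block, against 2230 without. Between Tgfbr2KO_TGFB1 and TGFB1 the same 4 genes rose and none fell, against 15.6% and 18.3% of all tested genes. Mmp8 had 19.5, 17.7 and 6.86 FPKM in Tgfbr2KO_TGFB1 (log2 3.64, limma adjusted p = 0.000171). Mmp12, the macrophage elastase, did not pass in any of the 5 comparisons (means 9.01 FPKM in Tgfbr2KO_TGFB1, 11.5 in Tgfbr2KO_Vehicle, 9.40 in TGFB1 and 7.68 in Vehicle). None of the 8 passed between Tgfbr2KO_Vehicle and Vehicle. With the number as a block 1 rose and 2 fell there, where 1897 of all tested genes passed, against 157 without.

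Mmp8 is a neutrophil collagenase. The summed FPKM of 8 neutrophil markers was 193, 128 and 18.7 in Tgfbr2KO_TGFB1, 222, 124 and 43.4 in Tgfbr2KO_Vehicle, 0.364, 1.41 and 0.248 in TGFB1 and 15.8, 6.20 and 4.13 in Vehicle libraries. As for Mmp8 and Mmp3, every knockout sum lay above every Vehicle sum, and every Vehicle sum above every TGFB1 sum. Within the TGFB1 group the orders differed, with the sum highest in replicate 2, where Mmp8 was lowest. In the knockout libraries most of that sum was S100a8 (10.3 to 219 FPKM). Over all 12 libraries its partner S100a9 was at most 0.536, Ly6g at most 0.549, Csf3r at most 0.478, Mpo at most 0.269, Ngp at most 0.0542 and Elane 0. Camp had 2.87 to 7.86 FPKM in Tgfbr2KO_TGFB1, 1.16 to 3.07 in Tgfbr2KO_Vehicle and 1.71 to 4.22 in Vehicle libraries and was listed at 0 in all 3 TGFB1 libraries. The part of neutrophil RNA in the Mmp8 and Mmp3 results was not tested. Only S100a8 and Camp reached 1 FPKM in enough libraries to be tested.

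Of 20 genes for activation, inhibition and clearance of MMPs, 18 were tested, and with TGFB1 in cultures not labelled knockout 7 rose and 2 fell (list median log2 0.32), where 17.3% of all tested genes rose and 14.6% fell. Tfpi2, a serine protease inhibitor of the matrix, rose 16.0-fold to 31.4 ± 0.884 FPKM with TGFB1, against 1.96 ± 0.267 in Vehicle (SD, n = 3; log2 3.46, limma adjusted p = 2.85e-06). Thbs2, a matricellular protein that carries MMPs to clearance receptors, and the integrin subunit gene Itgb3 rose by log2 changes of 2.23 and 1.86, and the proprotein convertase gene Pcsk6 fell (-1.63). The interaction was positive for 1 and negative for 5, against 8.38% and 9.26% of all tested genes. With the number as a block it was positive for 2 and negative for 8. Of all tested genes 3658 passed with that block, against 2230 without. Between Tgfbr2KO_TGFB1 and TGFB1 4 rose and 5 fell, against 15.6% and 18.3% of all. Outside the family, 2 of 9 tested collagen uptake and breakdown genes rose with TGFB1 and none fell, against 17.3% and 14.6% of all. They were the cathepsin gene Ctsl (log2 0.52) and the prolidase gene Pepd (0.31). With the number as a block 4 rose, where 5240 of all tested genes passed in either direction, against 4033 without.

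Of 14 tested collagen and other substrate genes 7 rose, 1 fell and 6 did not pass with TGFB1 (list median log2 0.49; 17.3% of all tested genes rose and 14.6% fell). Among those that rose were Eln, elastin (4.87), Col5a3 (3.20), Fn1, fibronectin (1.53), and Tnc, tenascin C (1.51). The interaction was positive for 1 and negative for 4, against 8.38% and 9.26% of all tested genes. With a block within each genotype it was positive for 3 and negative for 5. Of all tested genes 3558 passed with that block, against 2230 without. Between Tgfbr2KO_TGFB1 and TGFB1 1 rose and 10 fell (15.6% and 18.3% of all). Of 10 tested cytokines that induce MMPs, 4 rose and 3 fell, with Hbegf 7.82-fold higher with TGFB1 and Il33, Hgf and Il6 lower by log2 changes of -2.54, -2.32 and -2.20 (limma adjusted p from 1.11e-05 to 0.00484 for these 4 genes). None of the genes of these lists passed between Tgfbr2KO_TGFB1 and Tgfbr2KO_Vehicle, where 0 of all 12641 tested genes passed.

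All 21 transcription factors of MMP promoters were tested, and with TGFB1 6 rose and 7 fell (list median log2 0.08), against 17.3% and 14.6% of all tested genes. Cebpd fell by a log2 change of -2.21, Atf3 and Runx1 rose by 1.00 and 0.97, and Fosl1, an AP-1 subunit, fell by -0.99 (limma adjusted p = 0.0380). Fosl1 had 43.8, 36.2 and 20.5 FPKM in Tgfbr2KO_TGFB1, 58.6, 45.6 and 40.3 in Tgfbr2KO_Vehicle, 10.7, 11.7 and 8.63 in TGFB1 and 24.5, 30.1 and 13.1 in Vehicle libraries. It was lowest in TGFB1 and highest in Tgfbr2KO_Vehicle, as Mmp3 was lowest in TGFB1, while Mmp10 and Mmp13 were lowest in Vehicle. Fosl1 passed between Tgfbr2KO_TGFB1 and TGFB1 (log2 1.55, limma adjusted p = 0.00397) but not between Tgfbr2KO_Vehicle and Vehicle (1.12, adjusted p = 0.103) or in the interaction (0.43, 0.554). Of this list only Runx1 passed between Tgfbr2KO_Vehicle and Vehicle (log2 -0.34, adjusted p = 0.0439).

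By Pearson's r of log2(FPKM + 1) over the 12 libraries, which share their groups and so mainly follow the group means, the pair of tested genes most like each member can be named. For Mmp3 these were Wdr92 (0.995) and Mmp8 (0.992), and for Mmp10 Impact (0.970) and Ttc12 (0.957). Mmp13 was most like Hgsnat (0.955) and Cyb5d1 (0.949), Mmp9 Cog3 (0.987) and Rab6a (0.984), and Mmp14 Col5a2 (0.994) and Arhgef2 (0.992). The inhibitors matched Vapa (0.985) and Sat1 (0.984) for Timp1, Alpl (0.991) and Id3 (0.986) for Timp2, and Pcolce2 (0.991) and Ss18 (0.988) for Timp3. Mmp2 matched Pskh1 (0.965) and Ufsp2 (0.963), and Mmp11 Btbd2 (0.971) and Lamc1 (0.969). The chromosome 9 neighbour Mmp8 was thus among the nearest genes outside the members for Mmp3 but not for Mmp10 or Mmp13. Between members, Mmp10 and Mmp13 had an r of 0.955, while Mmp3 had 0.794 with Mmp10 and 0.739 with Mmp13.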

How the data were processed

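RNA was read in 12 poly(A)-selected libraries, 3 in each of 4 groups taken from the sample titles. The authors deposited FPKM per gene symbol; kallisto 0.46.1, DESeq2 1.40.1 and the build mm9 are named per the submitters' processing notes, and how FPKM were scaled between libraries is not given in the sources used here. Values were taken as log2(FPKM + 1), which understates changes of low genes, and fitted with limma 3.58.1 (R 4.3.3; trended empirical Bayes, 4 group means, 8 residual degrees of freedom) over the 12641 genes that reached 1 FPKM in 3 or more of 12 libraries. P-values were adjusted by Benjamini and Hochberg over all tested genes, with a threshold of 0.05; folds are ratios of mean FPKM. Tables and figures used Python 3.11.15, numpy 2.4.6, pandas 2.3.3 and matplotlib 3.10.9. The fit was checked on simulated data. Relative depth is the most frequent ratio of values below 0.5 FPKM, inverted, with Vehicle replicate 1 as 1. Absolute depth is not known.

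The titles number the replicates 1, 2 and 3, and the descriptions give each number 1 further identifier that recurs in all 4 groups and both genotypes and whose meaning is not stated. Across genes, the correlation of deviations from the group mean between libraries of 1 number was 0.391, 0.445 and 0.408 (TGFB1 with Vehicle) and 0.588, 0.227 and 0.529 (Tgfbr2KO_TGFB1 with Tgfbr2KO_Vehicle), so the numbers were taken to pair libraries within a genotype. The main fit, from which calls are given unless a block is named, did not use this pairing. Between genotypes it was 0.336, -0.0867 and 0.412 (Tgfbr2KO_Vehicle with Vehicle) and 0.337, 0.00945 and 0.276 (Tgfbr2KO_TGFB1 with TGFB1). Pairing required every value to be over 0.1, so the numbers were not taken to pair libraries there, although 4 of these 6 were over it. Alternatives were a block for the number within each genotype and 1 block for the number over both genotypes (the replicate block). The latter assumes a pairing between genotypes that did not meet this rule. Others were a pseudocount of 0.1, no filter, upper-quartile scaling and leaving out each library.

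Named are the 10 members and the 2 genes outside them most correlated with each member. From each other list, up to 4 genes are named. These had the largest changes that passed for TGFB1 against Vehicle and a mean of at least 1 FPKM. The members and lists were chosen with earlier results of these data known. Promoter sequences are from RefSeq on GRCm38.p6; no mm9 coordinates are given.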

Additional observations from a re-analysis of the deposited data

Results flagged for a closer look

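The change with TGFB1 differed between the genotypes by the interaction term for 4 of the 10 genes, and for 17.6% of all tested genes. Of the 4, Mmp9 lost its call in 4 of the 12 fits that each left out 1 library. The Tgfbr2KO change minus the change in cultures not labelled knockout was -2.85 for Mmp9, -0.80 for Timp1, 0.38 for Timp2 and -1.18 for Timp3 on the log2(FPKM + 1) scale (limma adjusted p = 0.0253, 0.0124, 0.00616 and 0.00672 in that order). In replicate numbers 1, 2 and 3, Timp3 with TGFB1 stood at 1.30, 1.11 and 0.721 times vehicle in Tgfbr2KO cultures, and at 2.34, 2.12 and 2.48 times in cultures not labelled knockout. Timp2 stood at 1.01, 0.941 and 1.09 times in Tgfbr2KO cultures and at 0.768, 0.775 and 0.777 times in the others. Groups of 3 libraries are too small for a check of single outlying samples.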

How the results depend on the processing

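For TGFB1 minus Vehicle, the directions of all 10 genes held under every alternative run. With the replicate block 7 passed (5240 of all genes) and with it within genotype 9 (5102), against 6 (4033) without. When 1 library was left out, 5 to 7 passed (2968 to 4580 of all genes). For the interaction, 3 to 5 passed when 1 library was left out (1486 to 2457 of all genes), and of all genes 3658 passed with the replicate block and 3558 with it within genotype, against 2230 without. The Tgfbr2KO_Vehicle comparison with Vehicle depended most on the settings: of the 10 genes 6 passed with the replicate block, 1 at a pseudocount of 0.1 (Mmp13, since Mmp3 had an adjusted p of 0.0510), 0 with no filter on low values (limma adjusted p = 0.0586 for Mmp3 and 0.0747 for Mmp13) and 0 to 4 when 1 library was left out. Of all genes 1897 passed there with the replicate block, 125 at a pseudocount of 0.1 and 71 with no filter, against 157. When 1 library was left out, 0 to 748 of all genes passed. With that block Mmp10 had an adjusted p of 0.00944, against 0.0649 without; replicate 2 did not correlate between genotypes, so whether the numbers pair libraries there is not known.

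In Tgfbr2KO_TGFB1 minus Tgfbr2KO_Vehicle, 1 of all genes passed at a pseudocount of 0.1 and 0 to 1 when 1 library was left out. Log2 changes that did not pass there changed sign when 1 library was left out, with ranges of -0.39 to 0.58 for Mmp3, -0.48 to 0.53 for Mmp10, -0.067 to 0.35 for Mmp11, -0.81 to 0.072 for Mmp13, -0.12 to 0.13 for Timp1, -0.026 to 0.051 for Timp2 and -0.088 to 0.20 for Timp3, as did Mmp11 in Tgfbr2KO_TGFB1 minus TGFB1 (-0.34 to 0.076). The cause was not tested. In Tgfbr2KO_TGFB1 minus TGFB1, 6 to 9 of the 10 genes passed when 1 library was left out (3399 to 4371 of all genes, against 4284). Upper-quartile scaling changed no call among the 10 genes. Mmp3 at under 0.4 FPKM in TGFB1 libraries, and the unknown number of reads, limit what can be said of its fold.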
